A study of Homo sapiens with 6 samples.

Results

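The carcinoembryonic antigen-related cell adhesion molecules (CEACAMs) examined here are CEACAM1, CEACAM3, CEACAM5, CEACAM6, CEACAM7 and CEACAM8. Every probe set annotated to 1 of these 6 symbols on the HGU133 Plus 2.0 microarray was taken, which gave 16 of the 54675 probe sets of the array, and 0 of them were shared with another gene. The array holds several sets of oligonucleotides for most of the genes, so that CEACAM1 was read by 5 probe sets, CEACAM3 and CEACAM7 by 3 each, CEACAM5 and CEACAM6 by 2 each and CEACAM8 by 1. Of the 16, 4 carry the suffix _x_at, which marks probes that also match other transcripts, and all 4 belong to CEACAM1 and CEACAM3. Matches of the other probe sets to other transcripts, the _s_at ones of CEACAM1, CEACAM6 and CEACAM7 included, were not examined.

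Signals were measured in HT-29 cells, an established human colon adenocarcinoma line. The 5-Aza group consists of 3 arrays of cells kept for 72 hours in medium without fetal calf serum with 10 µM 5-aza-2′-deoxycytidine (5-Aza), which inhibits DNA methyltransferases. The control group consists of 3 arrays of cells that received only its solvent, water with acetate. All 6 arrays come from 1 cell line, and whether each array had a culture of its own is not stated in the sources used here, and the p-values therefore cover the scatter of these arrays alone, which may be technical.

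CEACAM proteins are cell surface glycoproteins of the immunoglobulin superfamily that bind each other between neighbouring cells and serve several bacteria as docking sites. CEACAM5, the carcinoembryonic antigen measured in the blood of patients with colorectal cancer, CEACAM6 and CEACAM7 are held in the membrane of colonic epithelial cells by a glycosylphosphatidylinositol (GPI) anchor, as is CEACAM8 on granulocytes. CEACAM1 crosses the membrane and can carry inhibitory tyrosine motifs in its tail, and CEACAM3 is a receptor of granulocytes that takes up bacteria. Dividing cells incorporate 5-Aza into their DNA, where it traps the methyltransferases and lowers methylation at CpG sites, and the comparison asks how the transcripts of the family differed after this treatment.

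Since the treatment acts on CpG sites, promoters of CEACAM5, CEACAM6 and CEACAM7 are shown. Each of these genes had a probe set above background that separated the groups. The promoter of CEACAM1, which had no such probe set, is shown as well. The promoters are RefSeq sequences of GRCh38.p14 with 250 bases before and 50 bases after the annotated transcription start. They run in the direction of the gene, and capitals mark CpG sites.

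CEACAM5 (chr19:41708376-41708675, plus strand): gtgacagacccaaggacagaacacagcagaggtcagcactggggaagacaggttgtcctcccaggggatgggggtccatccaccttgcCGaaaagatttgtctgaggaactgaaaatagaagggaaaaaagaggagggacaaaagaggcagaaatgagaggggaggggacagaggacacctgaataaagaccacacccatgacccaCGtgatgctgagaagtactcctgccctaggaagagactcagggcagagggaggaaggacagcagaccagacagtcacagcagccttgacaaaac
CEACAM6 (chr19:41755280-41755579, plus strand): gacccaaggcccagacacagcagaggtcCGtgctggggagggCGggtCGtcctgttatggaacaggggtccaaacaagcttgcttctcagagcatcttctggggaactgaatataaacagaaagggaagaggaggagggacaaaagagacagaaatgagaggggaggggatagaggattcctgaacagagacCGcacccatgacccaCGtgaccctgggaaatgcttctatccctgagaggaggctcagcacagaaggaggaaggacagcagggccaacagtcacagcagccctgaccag
CEACAM7 (chr19:41688221-41688520, minus strand): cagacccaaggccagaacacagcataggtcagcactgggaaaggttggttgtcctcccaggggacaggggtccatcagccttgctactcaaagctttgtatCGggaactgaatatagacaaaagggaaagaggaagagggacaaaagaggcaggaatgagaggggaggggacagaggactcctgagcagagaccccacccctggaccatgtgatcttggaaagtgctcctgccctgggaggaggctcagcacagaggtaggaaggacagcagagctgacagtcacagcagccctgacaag
CEACAM1 (chr19:42528432-42528731, minus strand): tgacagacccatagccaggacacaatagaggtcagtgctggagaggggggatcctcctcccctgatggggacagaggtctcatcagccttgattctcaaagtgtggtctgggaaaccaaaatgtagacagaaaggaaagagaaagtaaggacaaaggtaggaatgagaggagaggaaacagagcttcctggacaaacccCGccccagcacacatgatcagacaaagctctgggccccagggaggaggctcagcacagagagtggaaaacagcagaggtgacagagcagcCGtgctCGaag

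These promoters held few CpG sites. The window of CEACAM5 had 2 (at -162 and -44 from the start), that of CEACAM6 had 5, that of CEACAM7 had 1 (at -149) and that of CEACAM1 had 3, and those of CEACAM3 and CEACAM8, which are not printed, had 1 and 3. The median over 27305 promoters of the same length, 1 for each gene, was 14, and 34.4% of them had as few as CEACAM6 or fewer. The sequences resembled each other. CEACAM5 and CEACAM7 were identical at 81.4% of the aligned positions, CEACAM6 and CEACAM7 at 81.2% and CEACAM5 and CEACAM6 at 75.9%, while CEACAM1 reached 66.7%, 68.8% and 72.9% with CEACAM5, CEACAM6 and CEACAM7. The longest run common to CEACAM5, CEACAM6 and CEACAM7 was AATGAGAGGGGAGGGGA, 17 bases that began at -98, -97 and -96. It was found because the 3 promoters share it, and 3 of 27305 promoters held it on either strand. The windows of CEACAM3 and CEACAM8 matched it at 16 of its 17 bases and that of CEACAM1 at 14, and 9 of the 27305 promoters, these 5 included, matched at 16 or more. The E-box CACGTG, which reads the same on both strands, began at -46 in CEACAM5 and at -45 in CEACAM6, was not found in the other 4 windows and was present in 7.43% of all promoters. Its central bases are the CpG nearest to the start in both genes. GGGCGG, the core of a GC box, was found on 1 strand or the other in the windows of CEACAM1, CEACAM6 and CEACAM8 (44.6% of all promoters), and TATAAA in that of CEACAM6 (12%). Methylation was not measured on these arrays.

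**Figure D1:**
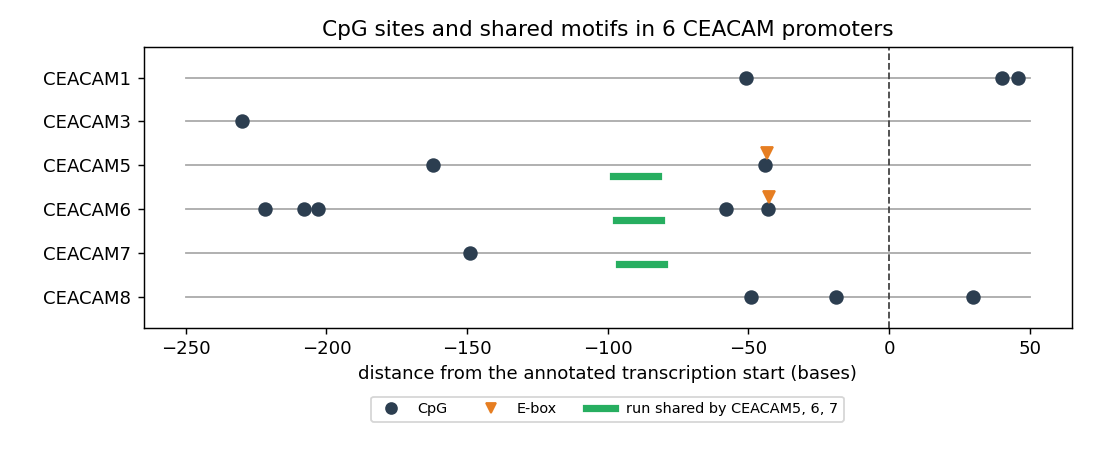
Positions of CpG sites (dark points), of the E-box (orange) and of the 17-base run shared by CEACAM5, CEACAM6 and CEACAM7 (green) in the promoters of the 6 genes, by distance in bases from the annotated start. Between 1 and 5 CpG sites lie in each window, and the E-box of CEACAM5 and CEACAM6 falls on a CpG.

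After 5-Aza treatment CEACAM5, CEACAM6 and CEACAM7 had signals between 1.56- and 2.02-fold those of controls with the probe sets named next, and the lowest 5-Aza array exceeded the highest control array. The groups overlapped in the other probe sets of CEACAM5 and CEACAM7 and in all of CEACAM1 and CEACAM3, and CEACAM8 was near background. Of the 16 probe sets, 4 (25.0%) were higher at an unadjusted p under 0.025 in limma, where 2.97% of all 54614 probe sets tested were. Lower ones numbered 0, against 1.05% of all probe sets. The study used the same p threshold for this comparison, but with Significance Analysis of Microarrays (SAM). It then took a fixed number of probe sets by highest log2 fold change, which was not done here. That number was larger than the 1621 probe sets that were higher here at that p in limma. The 4 are 2 probe sets of CEACAM6 and 1 each of CEACAM5 and CEACAM7, and probe sets of 1 gene are not independent. The count was 1 after each array was centred on its median, 2 with the SAM-type statistic and 1 without 5-Aza replicate 3 or without control replicate 1. In the same order, 926, 1282, 1258 and 1531 of all 54614 probe sets were higher at that p. Of all probe sets at that p, 73.8% were higher, and 39.0% after median centring. At a p under 0.05 adjusted by Benjamini-Hochberg over all probe sets, 0 of the 16 passed, as did 0% of all probe sets (smallest adjusted p = 0.0903 in limma). At an unadjusted p under 0.05 in limma, 4 of the 16 were higher (5.26% of all probe sets) and 0 lower (1.97% of all). The SAM-type statistic also called 0 at the adjusted threshold. Every 5-Aza array lay above every control array in 5 of the 16 (31.2%, against 9.29% of all probe sets), and below in 0 (5.22% of all). The 5 are the 4 probe sets of CEACAM5, CEACAM6 and CEACAM7 and that of CEACAM8, which was above background on 1 array only. The median log2 fold change of the 16 was 0.43, and that of all probe sets 0.062. The first was 0.24 after median centring, which moved the median of all probe sets to -0.125.

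Of the 16, 201884_at of CEACAM5 had the smallest SE. It had signals of 732.4, 850.7 and 925.9 on 5-Aza replicates 1, 2 and 3, against 400.8, 411.2 and 469.4 on control replicates 1, 2 and 3. The lowest treated array stood well clear of the highest control array. The mean was 836 ± 97.6 after 5-Aza and 427 ± 37.0 in controls (SD of 3 arrays), a log2 fold change of 0.96 (SE 0.17, 95% interval 0.55 to 1.38). The unadjusted p was 0.00165 and the adjusted p 0.319 in limma, and the exact permutation test (two-sided) gave 0.1, the smallest p that 3 arrays against 3 allow. This probe set kept an unadjusted p under 0.025 in all 15 alternative fits, with log2 fold changes from 0.78 to 1.06. The other probe set of CEACAM5, 217291_at, did not show this. Its signals were 106.7, 155.0 and 68.5 after 5-Aza and 98.7, 178.6 and 130.9 in controls, the groups overlapped, and the log2 fold change was -0.34 (SE 0.38, unadjusted p = 0.413 in limma).

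CEACAM6 was read by a pair of probe sets, and both separated the groups. 211657_at had signals of 1378.4, 1444.5 and 1679.0 after 5-Aza, against 887.2, 1140.6 and 874.8 in controls. Means were 1501 ± 158 after 5-Aza and 968 ± 150.0 in controls (SD of 3 arrays), 1.56-fold higher (log2 0.64, SE 0.18, unadjusted p = 0.0155, adjusted p = 0.579, limma). 203757_s_at had 947.3, 1047.7 and 1104.7 after 5-Aza, against 513.8, 818.9 and 554.5 in controls. With both probe sets control replicate 2 was the highest control array and the groups stayed apart. Means of 203757_s_at were 1033 ± 79.7 and 629 ± 166 after 5-Aza and in controls (SD of 3 arrays), 1.67-fold higher (log2 0.74, SE 0.23, unadjusted p = 0.0201, adjusted p = 0.604, limma). Without 1 array, each of the pair passed an unadjusted p under 0.025 in 1 of 6 fits, the one without control replicate 2 (0.76 and 0.95 on the log2 scale). In the others the log2 fold changes were between 0.55 and 0.80 with unadjusted p from 0.0314 to 0.0631. After median centring they were 0.45 and 0.56 (unadjusted p = 0.0697 and 0.0695 in limma).

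CEACAM7, which is found on mature colonic epithelial cells, was measured above background with 206199_at. The values were 184.7, 180.7 and 247.6 after 5-Aza and 87.1, 133.9 and 85.2 in controls. All 6 lay above the background of the array, taken as the highest signal of the probe sets for the bacterial transcript TrpnX on the same array (22.6 to 42). Means were 204 ± 37.5 and 102.1 ± 27.6 after 5-Aza and in controls (SD of 3 arrays), 2.02-fold higher (log2 1.01, SE 0.26, unadjusted p = 0.0093, adjusted p = 0.527, limma). The groups did not overlap, and 5-Aza replicate 3 was the highest and control replicate 2 the nearest control array. The unadjusted p stayed under 0.025 in 10 of 15 alternative fits and under 0.05 in all 15. It was 0.0266 after median centring (log2 0.82) and between 0.0318 and 0.0332 without 5-Aza replicate 3, control replicate 1 or control replicate 3. The other probe sets of CEACAM7 were near background. 211848_s_at ranged from 8.6 to 47.5 after 5-Aza and from 7.0 to 77.4 in controls, and 206198_s_at from 4.1 to 47.6 and from 3.7 to 46.6. Their log2 fold changes of -0.15 and 0.0047 had SEs of 1.09 and 1.32, so that a change of the size seen with 206199_at could not have been told from none.

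**Figure D2:**
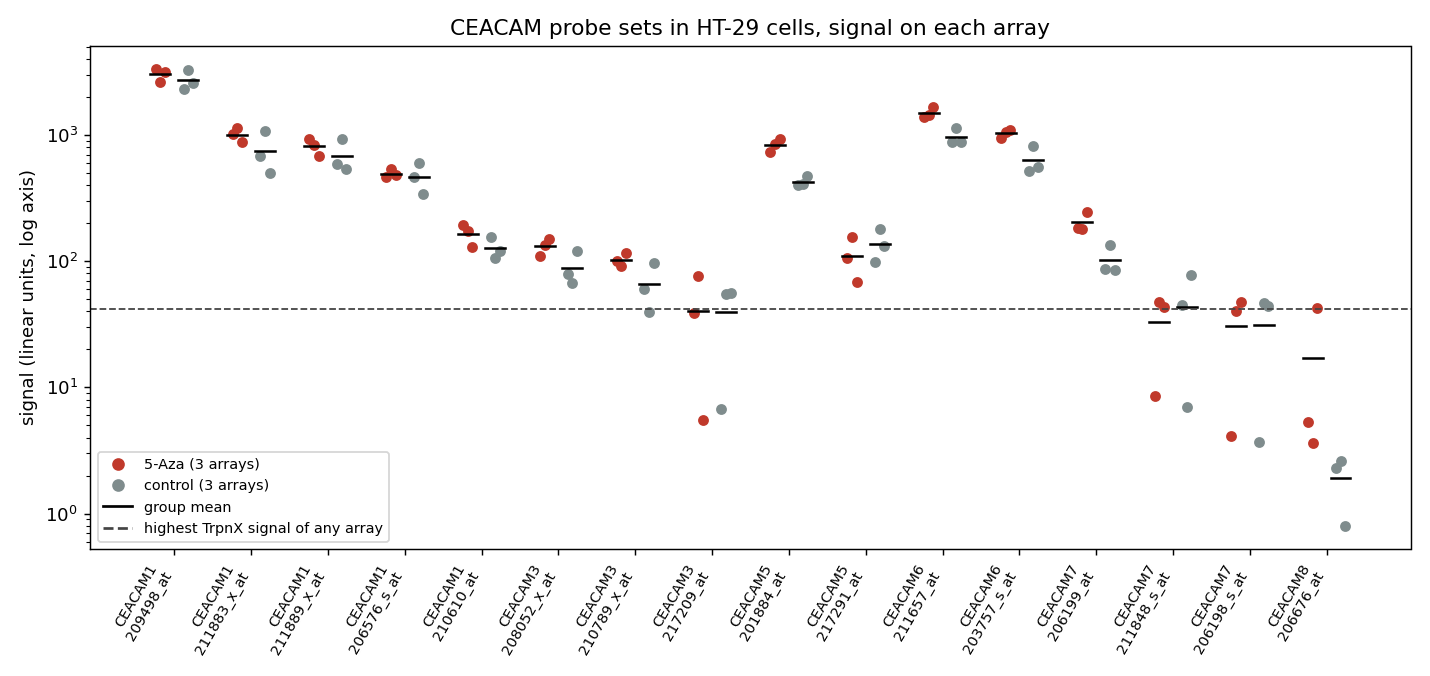
Signal (linear units on a log axis) of each CEACAM probe set on the 3 arrays of 5-Aza-treated cells (red) and the 3 arrays of controls (grey). Bars are group means and the dashed line is the highest TrpnX signal of any array, 42. Red and grey points are apart for CEACAM5 201884_at, both probe sets of CEACAM6, CEACAM7 206199_at and, below the line on all but 1 array, CEACAM8.

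CEACAM1 was well above background in both groups. Its probe set 209498_at had 3345.8, 2623.0 and 3134.3 after 5-Aza, against 2296.3, 3278.8 and 2590.6 in controls. The groups overlapped, with control replicate 2 within the treated range. The mean was 3034 ± 372 after 5-Aza and 2722 ± 504 in controls (SD of 3 arrays), a log2 fold change of 0.17 (SE 0.20, unadjusted p = 0.452, limma). Its 95% interval of -0.35 to 0.68 still allows a difference as large as that measured with 211657_at of CEACAM6 (0.64). After median centring the value was -0.021. The other 4 probe sets of CEACAM1 had log2 fold changes from 0.11 to 0.48, overlapping groups and unadjusted p from 0.172 to 0.659 in limma. Their 95% intervals had upper ends from 0.73 to 1.27, so larger differences were not excluded. Of the 4, 211883_x_at had 0.77 (unadjusted p = 0.0242, limma) without control replicate 2, and 206576_s_at had -0.072 after median centring. With 4 of the 5 probe sets, all but 210610_at, control replicate 2 was the highest control array.

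The change of CEACAM5, CEACAM6 and CEACAM7 relative to CEACAM1 on the same array, a comparison chosen after the values were seen, depended on the probe set taken for CEACAM1. Over its 5 probe sets the difference in log2 fold change was 0.48 to 0.85 for CEACAM5 (201884_at), 0.16 to 0.52 for CEACAM6 (211657_at) and 0.53 to 0.90 for CEACAM7 (206199_at). The groups did not overlap with 2, 2 and 3 of the 5, 209498_at among them, and overlapped with the others. No test is given.

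**Figure D3:**
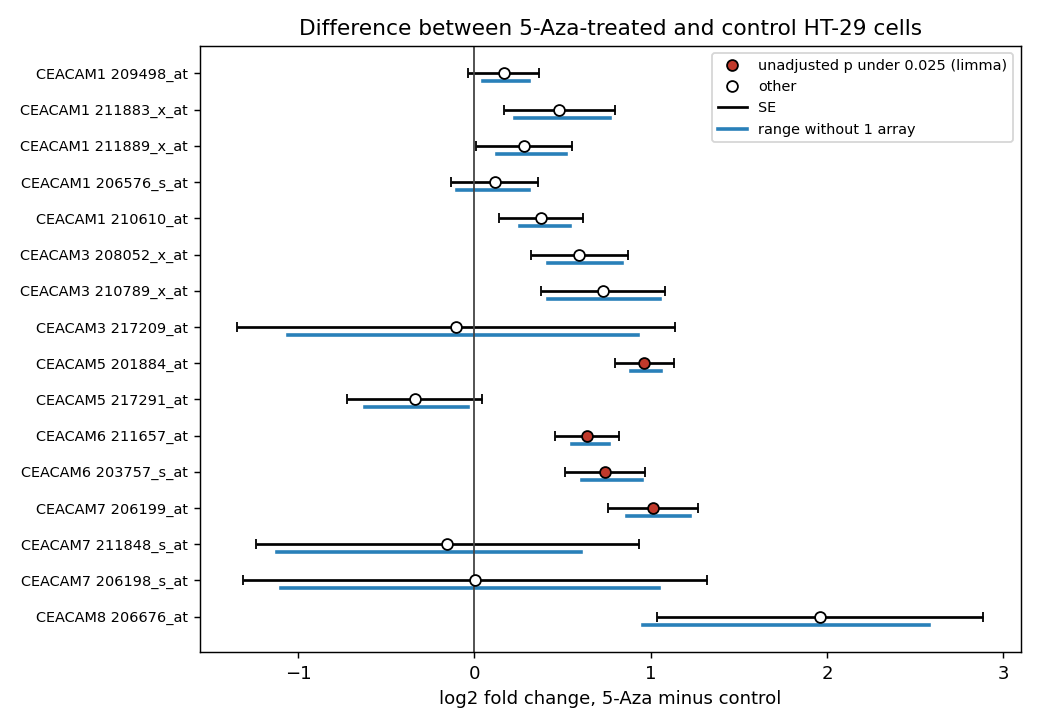
Log2 fold change (5-Aza minus control) of the 16 CEACAM probe sets with its SE (n = 3 arrays per group), and in blue the range when 1 array is left out. Red points passed an unadjusted p under 0.025 in limma, and are CEACAM5 201884_at (0.96), CEACAM6 211657_at (0.64) and 203757_s_at (0.74) and CEACAM7 206199_at (1.01). CEACAM8 and 217209_at, 211848_s_at and 206198_s_at were below TrpnX on some or most arrays.

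CEACAM3 and CEACAM8, which mark granulocytes, had weak signals. 208052_x_at of CEACAM3 had 109.6, 135.5 and 148.7 after 5-Aza and 78.8, 66.7 and 120.3 in controls, a log2 fold change of 0.60 (SE 0.27, unadjusted p = 0.0788, limma). 210789_x_at had 100.6, 92.2 and 116.0, against 60.7, 39.4 and 96.4, a log2 fold change of 0.73 (SE 0.35, unadjusted p = 0.0882). In both, control replicate 3 reached into the treated range, and without it the values were 0.84 and 1.05 (unadjusted p = 0.0157 and 0.0137, limma). The probes of both can bind other transcripts. The only probe set of CEACAM3 without that suffix, 217209_at, ranged from 5.5 to 76.2 after 5-Aza and from 6.8 to 56.0 in controls (log2 -0.10, SE 1.24). CEACAM8 (206676_at) had 5.3, 3.6 and 42.6 after 5-Aza and 2.3, 2.6 and 0.8 in controls. Only 5-Aza replicate 3 was above the TrpnX level of its array, so the fitted log2 difference of 1.96 (SE 0.93, unadjusted p = 0.0836, limma) is not a measured fold change, although the groups did not overlap. Markers of granulocytes were near background as well. Of 10, 1 was above TrpnX on all arrays and 3 on none (ELANE, LTF and PRTN3). The largest changes were those of MPO and PRTN3. PRTN3 had a mean of 4.43 ± 0.85 after 5-Aza and 17.8 ± 14.8 in controls. MPO had a mean of 27.2 ± 13.2 after 5-Aza and 8.77 ± 6.45 in controls and ELANE 5.50 ± 2.62 and 12.03 ± 11.7 (SD of 3 arrays). Of the 10, 0 passed an unadjusted p under 0.025 in limma (2.97% of all probe sets were higher and 1.05% lower). The summed signal of the 10 was 307.8 to 388.3 after 5-Aza and 205.6 to 295.9 in controls. Its part in the signals of CEACAM3 and CEACAM8 was not tested.

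Markers of other cell types were also weak. Summed signals of 5 markers of other leukocytes were 260.2 to 405.4 after 5-Aza and 186.8 to 238.8 in controls, those of 4 endothelial markers 245.9 to 308.9 and 163.0 to 223.2, and those of 6 fibroblast markers 479.3 to 609.1 and 365.0 to 536.2. In each of these lists 1 gene was above TrpnX on all arrays. The only one of these markers at an unadjusted p under 0.025 in limma was VWF, higher after 5-Aza (55.2 ± 26.6, against 13.1 ± 6.56) and above TrpnX on 2 arrays. Of all probe sets, 2.97% were higher and 1.05% lower at that p. The largest fitted log2 differences elsewhere were 1.34 (SE 0.65) for CD3E and 0.77 (SE 0.67) for NKG7 among leukocyte markers, and -2.23 (SE 1.06) for COL3A1 and 0.86 (SE 0.53) for LUM among fibroblast markers, none above TrpnX on all arrays. The 10 markers of colon epithelium summed to 125603.7 to 136670.8 after 5-Aza and 121022.7 to 153782.8 in controls and none passed that p. KRT19, a keratin, had -0.35 (SE 0.27) and KRT20, another, 0.35 (SE 0.16, unadjusted p = 0.0817, limma) on the log2 scale. Every 5-Aza array lay above every control array in 1 of the 10, KRT20 (9.29% of all probe sets). Every 5-Aza array lay below in 2, KRT19 and LGALS4 (5.22% of all). LGALS4 had a log2 fold change of -0.26 (SE 0.14). CDX2, a transcription factor that marks intestine, was weak, with a mean of 42.7 ± 43.1 after 5-Aza and 75.8 ± 11.9 in controls (SD of 3 arrays). Some array-wide measures differed between the groups. The median signal was 83.3 to 86.1 on the treated and 71.8 to 76.9 on the control arrays, and the ACTB log2 signal of the 3′ control set minus that of the 5′ one, which reflects RNA quality, was 0.73 ± 0.086 after 5-Aza and 0.54 ± 0.077 in controls (SD of 3 arrays), for which the two-sided exact permutation test gave its smallest p of 0.1. For GAPDH the same difference of control sets was 0.18 ± 0.048 after 5-Aza and 0.13 ± 0.029 in controls (SD of 3 arrays). Its groups overlapped, and the two-sided exact permutation test gave 0.2. The part of these measures in the CEACAM signals was not tested. Less RNA per cell and fewer cells that express a gene cannot be told apart in these samples.

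CEACAM5, CEACAM6 and CEACAM7 lie side by side on chromosome 19. In the RefSeq order of protein-coding genes CEACAM7, CEACAM5 and CEACAM6 follow each other, with CEACAM21 and CEACAM4 before them and CEACAM3 after them, and CEACAM1 and CEACAM8 lie beyond a further 23 genes. Of these 23 genes, 20 had a probe set with a single symbol, 15 of which were above TrpnX on all arrays. Their median log2 fold change was 0.038, none of them reached an unadjusted p under 0.025 in limma (2.97% of all probe sets higher, 1.05% lower), none had all 5-Aza arrays above the controls (9.29% of all), and in 1 of the 20, PAFAH1B3 (-0.27), every treated array lay below every control array (5.22% of all). Of the 15, CD79A had the value of largest size, 0.67 (unadjusted p = 0.0716) with overlapping groups. CEACAM4, the gene before CEACAM7, had 71.7 ± 37.7 after 5-Aza and 69.3 ± 29.9 in controls (SD of 3 arrays), a log2 fold change of 0.045. CEACAM21, the gene before that, was higher at an unadjusted p of 0.022, with every 5-Aza array above every control array but its control signals below TrpnX. The groups of CEACAM8 did not overlap either. This stretch was chosen after the values were seen.

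**Figure D4:**
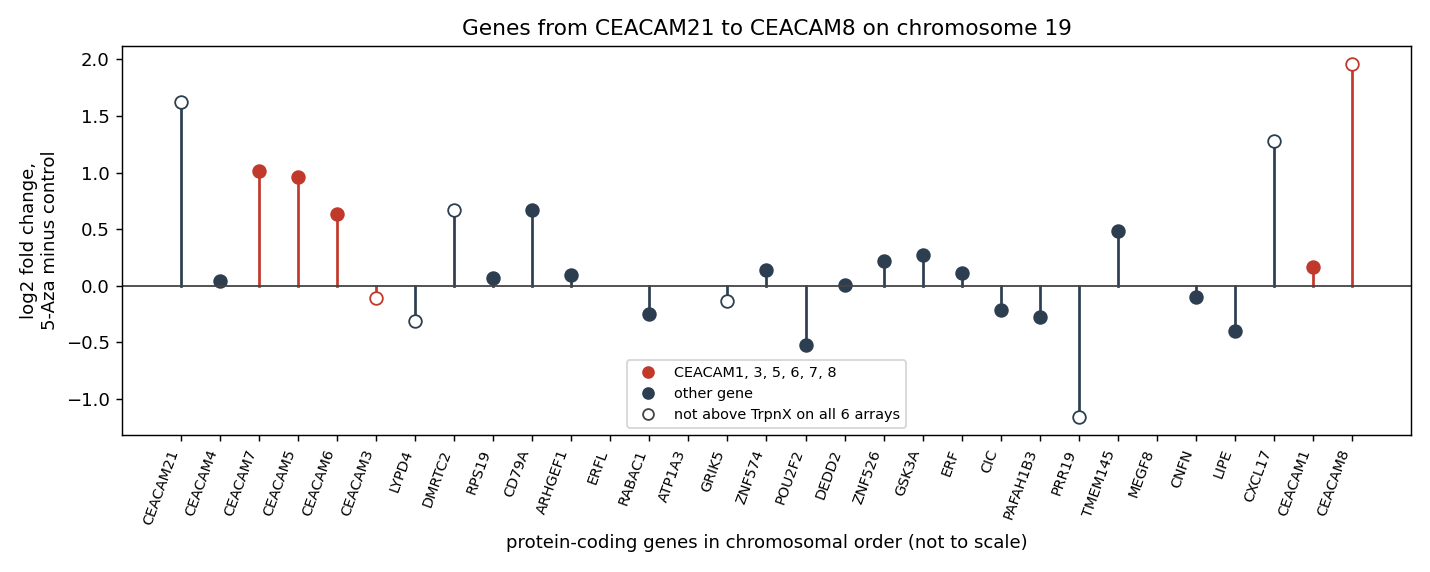
Log2 fold change (5-Aza minus control) of the protein-coding genes from CEACAM21 to CEACAM8 on chromosome 19, in their order along the chromosome and 1 probe set a gene (for CEACAM3 217209_at, at -0.10, while its _x_at probe sets read 0.60 and 0.73). Members of the family described here are red, and open points were not above the TrpnX level on all 6 arrays. CEACAM7, CEACAM5 and CEACAM6 stand next to each other at 1.01, 0.96 and 0.64, and 3 genes without a bar had no probe set with a single symbol. The other probe set of CEACAM5, 217291_at, which is not drawn, read -0.34.

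Other genes of the carcinoembryonic antigen family were read as well, among them the pregnancy-specific glycoproteins (PSGs), which are made by the placenta. Of 12 measured genes 2 reached an unadjusted p under 0.025 in limma, both higher, against 2.97% of all probe sets higher. PSG4 (208191_x_at) had 57.1, 60.4 and 64.7 after 5-Aza and 20.6, 15.1 and 15.8 in controls. All 5-Aza arrays and no control array were above TrpnX, so that only a bound can be given. Set against the TrpnX level of the control arrays (means of log2 values), PSG4 was at least 1.85-fold higher (unadjusted p = 0.000112, adjusted p = 0.156, limma). Its probes can bind other transcripts. CEACAM21 had 23.6, 63.4 and 34.2 after 5-Aza and 11.9, 6.5 and 18.7 in controls, at least 1.15-fold higher by the same bound (unadjusted p = 0.022, limma), with 2 of the 3 5-Aza arrays and no control array above TrpnX. The median fitted log2 difference of the 12 was 0.44, and 3 of them were above TrpnX on all arrays.

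Genes that act with CEACAM proteins were examined next. Of 14 measured binding partners and signalling genes 1 was higher and 0 were lower by the same unadjusted p in limma. Of all probe sets, 2.97% were higher and 1.05% lower at that p, against which each list below is also to be read. The median log2 fold change of the 14 was 0.17. The one was ITGA5, an integrin subunit that binds fibronectin, with 82.2, 151.2 and 46.5 after 5-Aza and 40.9, 21.7 and 21.7 in controls (unadjusted p = 0.0227, limma). Of its control arrays 1 was above TrpnX, so the fitted log2 difference of 1.60 (SE 0.51) is partly against background. It did not pass after quantile normalization or median centring, where 1 of the 14 was lower in each case. Of all 54614 probe sets, 911 and 1451 were lower in these 2 fits. Of 8 genes that attach, edit or release GPI anchors, which CEACAM5, CEACAM6, CEACAM7 and CEACAM8 need, none reached that p in either direction, and the median log2 fold change was -0.049. The values of largest size were 0.50 (SE 0.19, unadjusted p = 0.0473) for PGAP1, which edits the lipid of the anchor, and -0.35 (SE 0.30) for the phospholipase GPLD1. Nor did any of 13 measured transcription factors reported at CEACAM promoters, whose median was 0.052. CDX2 had -1.32 (SE 0.78, unadjusted p = 0.146) and SOX9 0.29 (SE 0.14, unadjusted p = 0.0977). USF2, which binds the E-box, had 1483 ± 436 after 5-Aza and 1223 ± 257 in controls (SD of 3 arrays), a log2 fold change of 0.26 (SE 0.28). Of the 13 factors, 11 were above TrpnX on all arrays and 1, USF1, on none.

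Over the 6 arrays, the log2 signals of CEACAM6 (211657_at) and CEACAM7 (206199_at) had a Pearson correlation of 0.997, and those of CEACAM5 (201884_at) correlated with them at 0.90 and 0.88. As deviations from the group means the first was 0.986 and the others 0.221 and 0.148. The probe sets share the 6 arrays and their scaling, and shared probe matches were not examined. Among 11727 other genes with a mean signal above the median, the closest in pattern over the 6 arrays were EMP3 (r = 0.995), INO80D (0.995) and TMED9 (0.993) for CEACAM5. They were FEZ2 (0.993), ZHX1 (0.990) and VDAC3 (0.989) for CEACAM6, and FEZ2 (0.995), SLC18B1 (0.989) and HLA-C (0.987) for CEACAM7. For CEACAM1 they were ERG28 (0.985), NPTXR (0.982) and ALG10 (0.980). With 6 arrays and this many genes, such values are a description only.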

How the data were processed

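Gene expression was measured on 6 HGU133 Plus 2.0 microarrays, 3 of 5-Aza-treated and 3 of control HT-29 cells, grouped by the sample titles. The deposited values are linear intensity signals, 1 for each of 54675 probe sets and array, which the authors made with the affy package (version, background correction and summary method are not given in the sources used here). The mean signal without the lowest and highest 2% of probe sets was 500 on every array, so the arrays had been scaled. Signals were taken as log2(signal + 1), 61 control probe sets were left out (the Alu control was kept), and the groups were compared over 54614 probe sets with limma 3.58.1 in R 4.3.3, with group as the only term and Benjamini-Hochberg adjustment. A difference is also given by an exact permutation test. Fold changes on this scale understate those of weak signals. Precision is limited by the 3 arrays of a group, and correlations between arrays were 0.926 to 0.934. The fit was tested on simulated data.

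Symbols came from the platform annotation, in which 41097 probe sets have 1 symbol, 1801 several and 11777 none. A gene outside the family was represented by its single-symbol probe set of highest mean signal, _x_at ones only where there was no other. All CEACAM probe sets are named. Of the other lists, genes were named where the unadjusted p was under 0.025 or, where none was, the 2 of largest change, and for CEACAM genes above background the 3 most correlated genes. USF1, USF2, CEACAM4, PAFAH1B3, CD79A, KRT20, LGALS4, ELANE and LTF were chosen after their values were seen. The members and lists were chosen with earlier results of these data known. Replicate numbers were not used to pair the arrays in the fit with group as the only term. Promoters were aligned with Biopython 1.88. Alternatives were quantile normalization, median centring, 16 added in place of 1, trend and robust variance, a SAM-type statistic, a filter on weak signals, the set of probe sets, a replicate block, leaving out each array, and the ratio of mean signals.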

Additional observations from a re-analysis of the deposited data

How the results depend on the processing

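CEACAM5 (201884_at) kept its direction and an unadjusted p under 0.025 in all 15 alternative fits. The 2 probe sets of CEACAM6 and 206199_at of CEACAM7 kept their direction in all of them. Their unadjusted p was under 0.025 in 7 of the 15 for each probe set of CEACAM6 and in 10 of the 15 for 206199_at. The count of 4 CEACAM probe sets higher at that p was 1 after median centring, 2 with the SAM-type statistic, 1 with the replicate block and 1 to 5 without 1 array (2 when 5-Aza replicate 1 or 2 was left out, 1 when 5-Aza replicate 3 or control replicate 1 was). The 6 other fits over all arrays gave 4. The labels number the arrays of each group but do not say that arrays with the same number belong together. Deviations of arrays with the same number had correlations of -0.012, 0.002 and 0.010, which does not exclude a pairing. At an adjusted p under 0.05, 0 of the 16 passed in any fit. Among all probe sets, that unadjusted p was reached by 1621 with a higher and 575 with a lower signal. Median centring gave 926 and 1451 (39.0% higher, against 73.8%), quantile normalization 911 lower (54.5% higher), and trend and robust variance 909 lower. Higher ones numbered 1282 with the SAM-type statistic, 1406 with the replicate block and 1258 to 1871 without 1 array. The adjusted threshold was passed by 22 higher and 1 lower under trend and robust variance, and by 9 higher when weaker probe sets, below the median, were left out.

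Values that turned their direction were those of CEACAM1 209498_at (-0.021) and 206576_s_at (-0.072) after median centring, and those of 206198_s_at of CEACAM7 after quantile normalization (-0.22), median centring (-0.18) and addition of 16 (-0.016). Without 1 array, log2 fold changes ranged from -0.099 to 0.31 for 206576_s_at, from -1.06 to 0.93 for 217209_at of CEACAM3, from -1.12 to 0.60 for 211848_s_at and from -1.10 to 1.05 for 206198_s_at of CEACAM7. The cause was not tested. The other CEA family genes higher at an unadjusted p under 0.025 numbered 1 after either scaling. The binding partners had 0 higher and 1 lower, and the endothelium markers 0 higher, after either. Signals near the TrpnX level limit what can be said of CEACAM8 and of 3 probe sets of CEACAM3 and CEACAM7.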
